A study of Mus musculus with 8 samples.

Results

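The non-parenchymal liver markers are 37 genes whose RNA in a whole liver comes mainly or in large part from cells other than hepatocytes. They were chosen by gene symbol, as 9 Kupffer cell, 10 endothelial, 13 stellate cell or fibroblast and 5 bile duct markers, and all 37 have a row among the 25124 gene rows of the expression table. Steady-state RNA was measured by RNA-seq, and nascent RNA of isolated nuclei by GRO-seq (a global nuclear run-on assay), in livers of male mice, to find RNAs that respond to the bile acid receptor FXR. The present question is whether these markers differed with GW4064, a synthetic FXR agonist, or between genotypes, and how many reads stand behind each value. The RNA-seq groups are wild-type livers given GW4064 at 30 mg/kg and wild-type livers given DMSO, with 2 libraries each. Each of these libraries pooled liver RNA from 2 mice, out of 4 mice per group. The GRO-seq groups are livers with the FXR KO label given GW4064, livers with the KO label given vehicle, livers with the WT label given GW4064 and livers with the WT label given vehicle, with 1 library each. The paper gives more than a single mouse per GRO-seq group, and whether a library stands for pooled mice or merged runs is not given in the sources used here. The study's methods call the KO-labelled mice Fxr-LKO and the WT-labelled mice Fxr-Flox, so in GRO-seq the WT label stands for mice that carry the floxed allele without Cre. The paper states no strain for the Fxr-LKO and Fxr-Flox mice. All mice were fasted overnight and livers were taken 1 h after the injection. The vehicle is DMSO in the sample titles and corn oil in the paper's methods. In Fxr-LKO mice the deletion is driven by Albumin-Cre, which acts in hepatocytes and in cells that arise from the embryonic hepatoblast, bile duct cells among them, and is not expected to act in Kupffer, endothelial or stellate cells.

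Hepatocytes make up most of the liver mass, and the other resident cells lie along the sinusoids or in the portal tracts. Kupffer cells are the liver's resident macrophages, sinusoidal endothelial cells form a fenestrated and scavenging lining, stellate cells store vitamin A and make matrix when activated, and cholangiocytes line the bile ducts. FXR acts mainly in hepatocytes and gut epithelium, and its level in the other liver cells is much lower. A marker's value in whole-liver RNA moves with the number of cells of its type and with the RNA per cell, and fewer cells of a type and less RNA per cell cannot be told apart here.

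Values are RPKM, reads scaled to the length of the row and to the depth of the library, over the whole gene with introns. The library totals rebuilt from these values were 13924430 and 13983896 reads for GW4064 and 13932117 and 14047255 reads for DMSO in RNA-seq. In GRO-seq they were 5069393 reads for GW4064 and 5141667 for vehicle with the KO label, against 10593321 for GW4064 and 14173708 for vehicle with the WT label. Nr0b2, the FXR target gene that encodes SHP, had 31.5 and 30.5 RPKM in GW4064-treated livers, against 6.83 and 4.04 RPKM in DMSO livers, and rose (log2 fold change 2.54, SE 0.27 on that scale, adjusted p = 0.037 in limma). Its nascent RNA was 1.19 RPKM with GW4064 and 0.118 RPKM with vehicle under the KO label (20 and 2 reads). Under the WT label it was 36.6 and 3.65 RPKM (1284 and 171 reads). The log2 ratio of GW4064 over vehicle was 3.337 under the KO label and 3.329 under the WT label. The KO-label ratio rests on 2 vehicle reads, and its 95% interval from counting error alone ran from 1.301 to 6.484 (3.097 to 3.567 under the WT label). Nascent Nr0b2 thus set the labels apart by its level and not by its ratio. Nr1h4, which encodes FXR, fell after GW4064 in RNA-seq (3.90 and 3.72 RPKM, against 9.09 and 9.38 RPKM in DMSO livers, log2 fold change -1.26, SE 0.06, adjusted p = 0.015 in limma). Nr1h4 nascent RNA was 20.6 and 16.7 RPKM with GW4064 and vehicle under the KO label, against 4.23 and 15.1 RPKM under the WT label, and the whole-gene row does not measure the deleted exons on their own.

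Together the 37 markers held 0.235% and 0.242% of the reads in the GW4064 libraries, against 0.237% and 0.228% in the DMSO libraries. Over the 4 RNA-seq libraries, the median marker had a mean of 2.65 RPKM among Kupffer genes, 2.71 RPKM among endothelial genes, 1.01 RPKM among stellate genes and 0.452 RPKM among bile duct genes. The 12 hepatocyte genes set beside them, such as Alb and Apoa1, had medians of 36.5 and 38.1 RPKM in GW4064 libraries and 39.1 and 39.2 RPKM in DMSO libraries. The whole-liver libraries thus carried each of the 4 marker classes at levels well under those of hepatocyte genes, with 25 of the 37 markers above a mean of 1 RPKM and 4 above 5 RPKM.

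**Figure D1:**
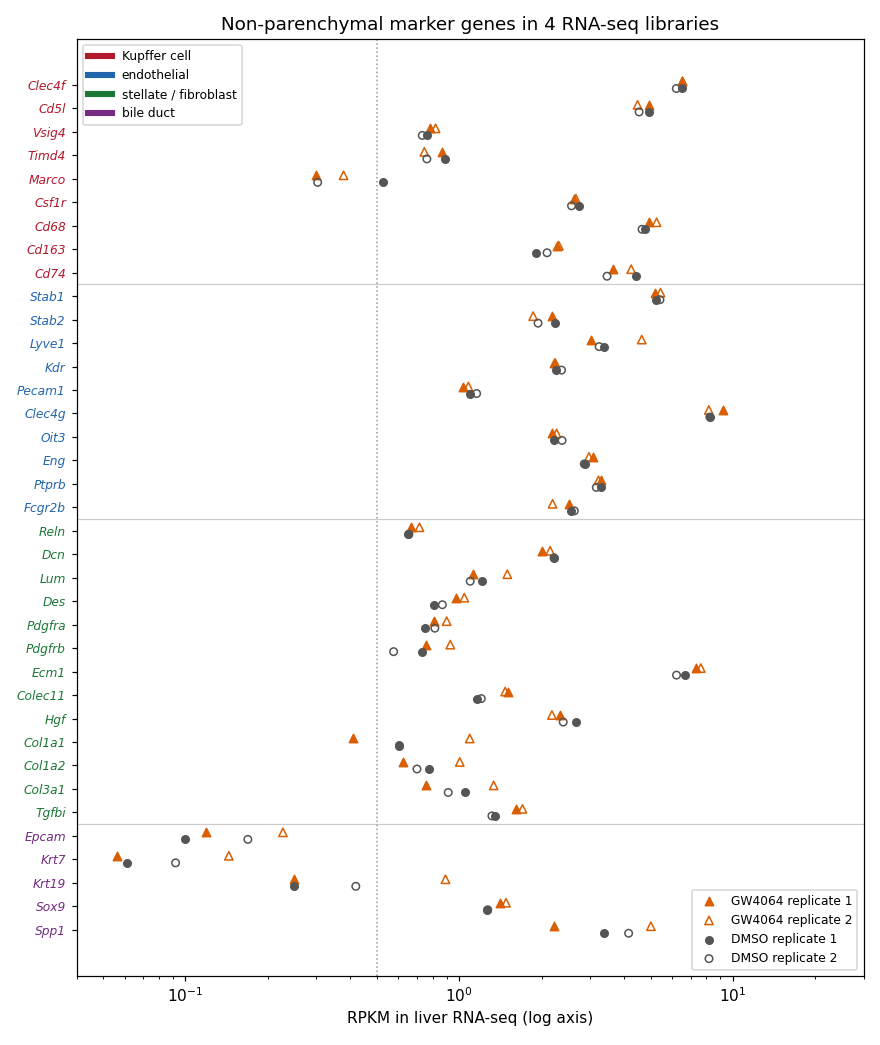
RPKM (log axis) of the 37 markers in the 4 RNA-seq libraries, with GW4064 as triangles and DMSO as circles, and gene names coloured by class; the dotted line marks 0.5 RPKM, the level a gene's mean had to reach to be tested. Clec4g, Ecm1 and Clec4f are highest, and Krt7 is lowest at 0.056 to 0.144 RPKM.

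The endothelial gene Clec4g, which encodes the lectin LSECtin of sinusoidal endothelium, had the highest mean of the list at 8.47 RPKM. Ecm1, a secreted matrix glycoprotein, followed at 6.96 RPKM and Clec4f, a lectin restricted to Kupffer cells in mice, at 6.46 RPKM. The long gene Reln, a secreted glycoprotein of stellate cells, shows why read numbers and levels part. It had 0.648 to 0.716 RPKM but 4155 to 4608 reads per RNA-seq library, because its row spans 460251 bases of which 2.54% are exon. Cd68, the lysosomal macrophage protein, had 4.66 to 5.26 RPKM from only 128 to 144 reads on a row of 1957 bases. Reads per RNA-seq library ran from 127 to 1059 for Kupffer genes, 476 to 5182 for endothelial genes, 93 to 4608 for stellate genes and 10 to 341 for bile duct genes. In 6 markers some RNA-seq library held under 100 reads, and in GRO-seq this was so for 19 markers. The rows of 7 markers overlap another gene's row, by at most 370 bases. The Hgf row follows a short transcript and ends 46208 bases before the annotated gene does, so its values describe the upstream part of the gene.

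Set against nascent RNA in vehicle-treated livers (DMSO RNA-seq mean over the vehicle GRO-seq value with the WT label, both in RPKM), the RNA-seq level was a median 2.86 times the nascent one for Kupffer genes, 1.60 times for endothelial genes, 2.55 times for stellate genes and 2.39 times for bile duct genes. Over the 9934 genes above 0.5 RPKM in both assays, the median was 1.32. The class medians take in every marker, also those under 0.5 RPKM in GRO-seq, so the sets are unlike. The 5 stellate genes that met this minimum in both assays had ratios of 1.16 (Dcn), 1.33 (Ecm1), 2.26 (Colec11), 0.828 (Hgf) and 1.74 (Tgfbi). Marco had the highest ratio at 7.42. The fibrillar collagens Col1a2, Col3a1 and Col1a1 stood at 5.68, 5.53 and 4.37, and Lum and Epcam at 4.92 and 4.80. Hgf, the hepatocyte growth factor made by stellate and endothelial cells, stood low at 0.828. The GRO-seq values behind the high ratios are small, with 24 reads for Marco, 66 for Col1a2, 96 for Col3a1, 33 for Col1a1, 24 for Lum and 6 for Epcam. The 2 assays came from different mice, so these ratios are a description only.

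In RNA-seq, 33 of the 37 markers reached the mean of 0.5 RPKM needed to be tested, and none of them differed between GW4064 and DMSO livers (limma on log2(RPKM + 0.1), Benjamini-Hochberg adjusted p under 0.05 over 11408 genes). Over all genes tested, 3.28% passed, 2.13% as higher and 1.15% as lower after GW4064. At an unadjusted p under 0.05, 6 of the 33 markers passed, and 21.2% of all genes did. Limma-voom on rebuilt reads called 2 of the 33 markers, Colec11 and Tgfbi, both higher after GW4064, where it called 9.09% of all genes. Both GW4064 libraries lay above both DMSO libraries for 12 markers (26.0% of all genes) and below them for 5 markers (28.1% of all genes). The median log2 change was 0.07 over the 33 markers and 0.00 over all genes tested. For 26 of the 33 markers the 95% interval of the fitted change lay within 1.5-fold in either direction, as it did for 76.5% of all genes.

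**Figure D2:**
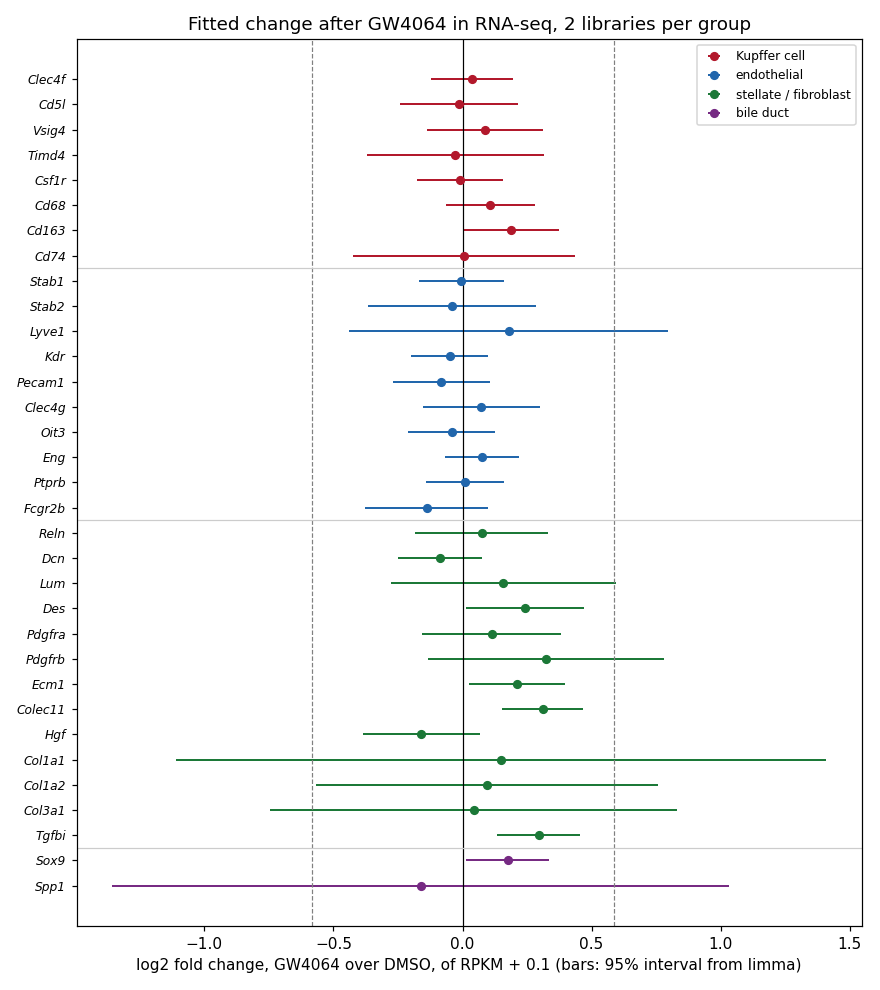
Fitted log2 fold change, GW4064 over DMSO, of the 33 markers tested in RNA-seq (2 libraries per group), with 95% intervals from limma; dashed lines mark 1.5-fold in either direction. Colec11 and Tgfbi have the smallest p-values with changes near 0.3, and the intervals of Col1a1 and Spp1 are widest.

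All 8 Kupffer cell markers that were tested had intervals within 1.5-fold, and their median log2 change was 0.02. Clec4f had 6.54 and 6.54 RPKM in GW4064 livers, against 6.53 and 6.21 RPKM in DMSO livers (1010 to 1059 reads, fold 1.03, 95% interval 0.919 to 1.15). The GW4064 values lay just above the DMSO ones, by less than the 2 DMSO libraries differed. Cd5l, a secreted macrophage protein that supports cell survival, had 4.93 and 4.48 RPKM after GW4064, against 4.95 and 4.54 RPKM after DMSO, and its groups overlapped. Csf1r, the receptor for the macrophage growth factor CSF1, had 2.62 and 2.67 RPKM, against 2.75 and 2.57 RPKM in DMSO livers, and these overlapped too. Timd4, a phosphatidylserine receptor of embryonically derived Kupffer cells, had 0.867 and 0.746 RPKM after GW4064, against 0.888 and 0.762 RPKM after DMSO.

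Vsig4, the complement receptor CRIg, was slightly above DMSO in both GW4064 libraries, at 0.781 and 0.82 RPKM against 0.762 and 0.733 RPKM (adjusted p = 0.59 in limma). Cd68 likewise had 4.92 and 5.26 RPKM, against 4.77 and 4.66 RPKM (adjusted p = 0.40 in limma). The largest Kupffer difference was in Cd163, the haemoglobin-haptoglobin scavenger receptor, with 2.27 and 2.31 RPKM in GW4064 livers, against 1.91 and 2.09 RPKM in DMSO livers (log2 fold change 0.19, SE 0.07, adjusted p = 0.23 in limma). These groups did not overlap, and the difference did not pass the test. Cd74, the invariant chain of antigen presentation, varied more within the groups than between them, with 3.65 and 4.25 RPKM after GW4064 and 4.43 and 3.47 RPKM after DMSO. Marco, a scavenger receptor of macrophages, was below the level tested, at 0.299 and 0.378 RPKM against 0.527 and 0.304 RPKM (127 to 224 reads). Leaving out DMSO replicate 1 put the Kupffer median at 0.09.

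Endothelial markers had a median log2 change of -0.02, and 9 of 10 intervals lay within 1.5-fold. Stab1, a scavenger receptor of sinusoidal endothelium, had 5.18 and 5.44 RPKM after GW4064, against 5.24 and 5.41 RPKM after DMSO (2138 to 2253 reads, fold 1.00, 95% interval 0.890 to 1.12). Stab2, the hyaluronan-clearing relative of Stab1, had 2.19 and 1.86 RPKM in GW4064 livers, against 2.23 and 1.94 RPKM in DMSO livers. In both genes the groups overlapped. Clec4g had 9.22 and 8.17 RPKM after GW4064, against 8.26 and 8.24 RPKM after DMSO, with the higher value in GW4064 replicate 1. Kdr, the main VEGF receptor of endothelium, had 2.22 and 2.24 RPKM, against 2.26 and 2.37 RPKM (fold 0.967, 95% interval 0.872 to 1.07). The junction protein Pecam1 had 1.04 and 1.08 RPKM, against 1.09 and 1.16 RPKM in DMSO livers (adjusted p = 0.55 in limma). Kdr and Pecam1 were thus a few percent under DMSO in both GW4064 libraries, without passing the test.

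Fcgr2b, the inhibitory Fc receptor of sinusoidal endothelium, had 2.52 and 2.19 RPKM after GW4064, against 2.56 and 2.63 RPKM after DMSO (log2 fold change -0.14, SE 0.08, adjusted p = 0.43 in limma). Eng, a co-receptor for BMP and TGF-beta family ligands, had 3.08 and 2.98 RPKM, against 2.87 and 2.87 RPKM (adjusted p = 0.47 in limma). Oit3, a secreted protein of sinusoidal endothelium, had 2.19 and 2.27 RPKM after GW4064, against 2.22 and 2.38 RPKM after DMSO. Of these, Fcgr2b and Eng did not overlap between groups and Oit3 did. Ptprb, the endothelial phosphatase VE-PTP, had 3.29 and 3.23 RPKM after GW4064, against 3.31 and 3.17 RPKM after DMSO (fold 1.01, 95% interval 0.907 to 1.12). Lyve1, the hyaluronan receptor of lymphatic and midlobular sinusoidal endothelium, was the exception in spread, with 3.04 and 4.65 RPKM in GW4064 livers, against 3.38 and 3.25 RPKM in DMSO livers. Its interval ran from 0.738-fold to 1.74-fold, and only GW4064 replicate 2 stood apart.

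Stellate markers had a median log2 change of 0.15, and 11 of the 13 lay above 0, beside 5613 of all 11408 genes tested. Of 23 further stellate genes tested, 14 lay above 0, with a median of 0.14. With GW4064 replicate 1 left out the median of the 13 markers was 0.30, and with GW4064 replicate 2 left out it was 0.03. GW4064 replicate 2 was the highest of the 4 libraries in 10 of 13 stellate markers (76.9%), in 18 of 33 markers over all classes (54.5%) and in 30.1% of all genes tested. Its part in the class median was not tested beyond leaving it out. Within 1.5-fold lay 8 of 13 intervals (76.5% of all genes). Both GW4064 libraries lay above both DMSO libraries for 6 of the markers (26.0% of all genes) and below them for 2 (28.1% of all genes).

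Colec11, a secreted collectin of the lectin complement pathway, had the smallest p of the whole list. It had 1.502 and 1.472 RPKM in GW4064 livers, against 1.157 and 1.204 RPKM in DMSO livers, on chr12:28594172-28623330 (600 to 610 reads after GW4064 and 470 to 493 after DMSO). This is 0.31 on the log2 scale (SE 0.06, adjusted p = 0.091 in limma and 0.030 in limma-voom). Tgfbi, a matrix adhesion protein that macrophages make too, had 1.62 and 1.70 RPKM after GW4064, against 1.35 and 1.32 RPKM after DMSO, on chr13:56609586-56639359. This is 0.30 on the log2 scale (SE 0.06, adjusted p = 0.10 in limma and 0.032 in limma-voom). In both genes the replicates lay close together and the groups did not overlap, and GW4064 replicate 2 was not the higher library in Colec11.

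FXR binds DNA with RXR, classically at an inverted pair of AGGTCA hexamers with a single base between them. In RefSeq promoter windows of mouse GRCm38.p6 (250 bases before to 50 after each start), 25 of the 37 markers had an entry. AGGTCA on either strand was in the windows of 5 of these 25 genes, Clec4f, Timd4, Stab2, Fcgr2b and Krt7, and in 16.3% of all 32851 windows. None of the 9 stellate genes with an entry had it. The inverted pair, AGGTCA and TGACCT with any base N between them, was in 0.00913% of all windows and in none of the markers' windows. These exact letters were in only 3 of 32851 windows, too few for a search of 27 marker windows to say anything about FXR sites. Below, the 250 bases before the start are given 5′ to 3′ on the gene's strand for Colec11 and Tgfbi, the markers with the smallest p, and for the Kupffer gene Clec4f, with the hexamer (which reads TGACCT here) in capitals.
Colec11, chr12:28623331-28623580, minus strand: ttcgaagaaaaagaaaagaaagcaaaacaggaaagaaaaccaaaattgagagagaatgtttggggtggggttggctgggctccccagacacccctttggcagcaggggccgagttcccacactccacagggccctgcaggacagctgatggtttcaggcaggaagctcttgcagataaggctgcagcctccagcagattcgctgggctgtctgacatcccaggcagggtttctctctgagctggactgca
Tgfbi, chr13:56609336-56609585, plus strand: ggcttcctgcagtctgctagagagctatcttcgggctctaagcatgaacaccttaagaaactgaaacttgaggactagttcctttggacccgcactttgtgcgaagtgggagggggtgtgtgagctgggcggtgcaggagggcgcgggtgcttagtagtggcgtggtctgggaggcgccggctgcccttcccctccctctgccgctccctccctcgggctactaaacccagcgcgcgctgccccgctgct
Clec4f, chr6:83656117-83656366, minus strand: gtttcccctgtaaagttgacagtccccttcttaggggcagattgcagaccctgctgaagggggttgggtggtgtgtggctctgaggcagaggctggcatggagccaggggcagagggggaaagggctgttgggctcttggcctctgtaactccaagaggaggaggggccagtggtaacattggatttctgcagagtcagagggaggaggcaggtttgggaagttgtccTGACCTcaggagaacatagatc
No capitals in Colec11 and Tgfbi says only that these letters are not in these windows. The match in Clec4f describes letters only, and whether FXR binds there was not tested.

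Other stellate genes followed with smaller differences that did not pass the test. Ecm1 had 7.31 and 7.64 RPKM in GW4064 livers, against 6.67 and 6.22 RPKM in DMSO livers (log2 fold change 0.21, adjusted p = 0.20 in limma). Des, the intermediate filament desmin, had 0.971 and 1.04 RPKM, against 0.806 and 0.868 RPKM, from 93 to 121 reads (log2 fold change 0.24, adjusted p = 0.22 in limma). Neither pair of groups overlapped. Pdgfrb, the PDGF receptor that marks stellate cells and pericytes, had 0.757 and 0.928 RPKM after GW4064, against 0.732 and 0.576 RPKM after DMSO (log2 fold change 0.32, SE 0.16, adjusted p = 0.36 in limma). Its relative Pdgfra, a receptor of fibroblasts, had 0.808 and 0.9 RPKM, against 0.748 and 0.815 RPKM. Reln had 0.667 and 0.716 RPKM after GW4064, against 0.648 and 0.655 RPKM after DMSO. Pdgfra overlapped between the groups, and Pdgfrb and Reln did not. The interval of Reln, with the most reads of the class, ran from 0.881-fold to 1.26-fold. On the other side lay Hgf, with 2.34 and 2.18 RPKM after GW4064, against 2.68 and 2.40 RPKM after DMSO (log2 fold change -0.16, adjusted p = 0.36 in limma). The proteoglycan gene Dcn had 2.01 and 2.15 RPKM, against 2.21 and 2.22 RPKM (log2 fold change -0.09, adjusted p = 0.46 in limma). These were the 2 stellate genes with both GW4064 libraries below both DMSO libraries.

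The matrix genes split the 2 GW4064 libraries. Col1a1, the alpha-1 chain of type I collagen, had 0.410 and 1.09 RPKM in GW4064 livers, against 0.602 and 0.605 RPKM in DMSO livers (96 and 257 reads, against 141 and 143). Col1a2, its partner chain, had 0.624 and 1.01 RPKM after GW4064, against 0.777 and 0.701 RPKM after DMSO. Col3a1, the type III collagen of the portal tracts, had 0.758 and 1.34 RPKM, against 1.05 and 0.912 RPKM. In all 3 collagens GW4064 replicate 1 was the lowest and replicate 2 the highest of the 4 libraries, so the DMSO values fell between them. Lum, the proteoglycan lumican of fibroblasts, had 1.127 and 1.499 RPKM after GW4064, against 1.216 and 1.097 RPKM after DMSO, again with replicate 2 highest. The interval of Col1a1 ran from 0.463-fold to 2.65-fold, so a change within these bounds was not detectable with 2 libraries per group.

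**Figure D3:**
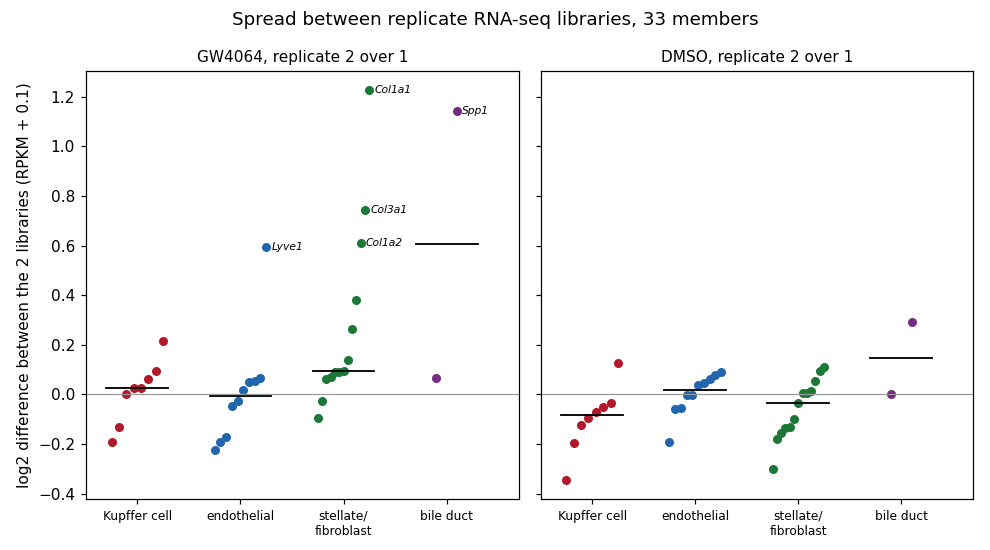
Log2 difference between the 2 replicate libraries of each treatment (RPKM + 0.1), for the 33 markers tested, by class, with the class median as a bar and genes over 0.5 named. The GW4064 libraries differ most in Col1a1, Spp1, Col3a1, Col1a2 and Lyve1, while no marker passes 0.35 in either direction between the DMSO libraries.

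Bile duct markers other than Sox9 also parted the 2 GW4064 libraries, at low read numbers. In these genes DMSO replicate 2 lay above DMSO replicate 1 as well. Spp1, osteopontin, had 2.22 and 5.02 RPKM in GW4064 livers, against 3.38 and 4.16 RPKM in DMSO livers (150 and 341 reads, against 229 and 284). Krt19, the keratin that defines biliary epithelium, had 0.249 and 0.891 RPKM, against 0.249 and 0.419 RPKM, from 10 and 36 reads against 10 and 17. Krt7, another biliary keratin, had 0.056 and 0.144 RPKM, against 0.061 and 0.092 RPKM. In each, GW4064 replicate 2 was the highest library. Epcam, an epithelial adhesion molecule of ducts, had 0.119 and 0.227 RPKM after GW4064, against 0.1 and 0.169 RPKM after DMSO, also with replicate 2 highest. Krt7, Krt19 and Epcam were below the level tested, and differences in them were not detectable at this depth. Sox9, the duct transcription factor, which periportal hepatocytes also express, behaved otherwise, with 1.41 and 1.48 RPKM in GW4064 livers, against 1.27 and 1.27 RPKM in DMSO livers (98 to 115 reads, log2 fold change 0.18, adjusted p = 0.21 in limma). Its groups did not overlap, and the difference did not pass the test.

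GW4064 replicate 2 was also the highest library in 10 of 12 tested rows of other blood cell genes, in 13 of 23 further stellate genes and in 2 of 10 endothelial markers. The same held for 7 of 12 hepatocyte genes, 6 of 7 further bile duct genes, 4 of 22 further Kupffer genes and 5 of 20 further endothelial genes. Over all genes tested the share was 30.1%. Of the 12 blood rows, 6 are globin copies that form 3 pairs with the same reads (Hba-a1 and Hba-a2, Hbb-bs and Hbb-b1, Hbb-bt and Hbb-b2), and with each pair counted once GW4064 replicate 2 was highest in 7 of 9. The alpha-globin copies Hba-a1 and Hba-a2 had 31.5 and 34.2 RPKM and 31.3 and 34.0 RPKM in the GW4064 libraries, against 29.5 and 30.1 RPKM and 29.4 and 29.9 RPKM in the DMSO libraries. None of the 12 blood rows passed in limma or limma-voom, and at an unadjusted p under 0.05 only the pair Hbb-bs and Hbb-b1 did (21.2% of all genes). The summed level of the blood list, with both globin copies of each pair in the sum, was 138.7 and 152.5 RPKM after GW4064, against 131.3 and 130.8 RPKM after DMSO. Summed Kupffer markers were 26.9 and 27.5 RPKM, against 27.5 and 25.4 RPKM, and summed endothelial markers 34.0 and 34.1 RPKM, against 33.4 and 33.4 RPKM. The share of ducts, portal tissue or blood in the tissue pieces was not tested.

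Wider lists of each cell type gave few calls. Of 22 further Kupffer or macrophage genes, 20 further endothelial genes and 7 further bile duct genes that were tested, none passed in either direction (3.28% of all genes), with medians of 0.06, 0.05 and 0.21. At an unadjusted p under 0.05, 1 of the Kupffer, 1 of the endothelial and 4 of the bile duct genes passed, beside 21.2% of all genes. Limma-voom called 0 of the Kupffer genes, 1 of the endothelial genes as higher (Gata4) and 1 of the bile duct genes as higher (Cdh1), both named here after their values were seen. It called 9.09% of all genes in either direction. The most abundant members were the macrophage perforin-like gene Mpeg1 (12.0 and 12.2 RPKM, against 12.4 and 9.81 RPKM), the complement gene C1qa (10.1 and 9.57 RPKM, against 9.71 and 8.49 RPKM), the endothelial genes Egfl7 (10.05 and 8.85 RPKM, against 7.49 and 8.38 RPKM) and Aqp1 (5.76 and 5.96 RPKM, against 5.58 and 5.81 RPKM), and the keratins Krt18 (14.5 and 14.8 RPKM, against 13.7 and 13.8 RPKM) and Krt8 (7.16 and 7.30 RPKM, against 6.13 and 6.36 RPKM), with GW4064 values first. Krt8 and Krt18 are made by hepatocytes as well as ducts. None of these 6 differences passed the test, and both GW4064 values lay above both DMSO values in Egfl7, Krt18 and Krt8 (26.0% of all genes). Of 12 hepatocyte genes none passed in limma, with 5 at an unadjusted p under 0.05 (21.2% of all genes) and 3 called by limma-voom (9.09% of all genes). These 3 were Ass1, higher, and Ttr and Cyp2e1, lower, likewise named after their values were seen. Among the 12 were Alb (68.3 and 77.8 RPKM, against 74.8 and 77.4 RPKM) and Apoa1 (130.4 and 153.1 RPKM, against 135.7 and 138.7 RPKM).

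Of 23 further stellate genes tested, 1 rose and 1 fell, beside 2.13% and 1.15% of all genes, and 6 of the 23 had an unadjusted p under 0.05, beside 21.2% of all genes. The 2 called genes are transcription factors. Lhx2, a LIM homeobox factor known to keep stellate cells quiescent in mice, had 0.760 and 0.722 RPKM in GW4064 livers, against 0.347 and 0.344 RPKM in DMSO livers, on chr2:38351308-38369737 (186 to 195 reads after GW4064 and 89 in each DMSO library). It rose by 0.92 on the log2 scale (SE 0.11, adjusted p = 0.047 in limma). Its mean of 0.543 RPKM reached the level tested only through the GW4064 libraries, and with no filter on level the adjusted p was 0.10 in limma. Hand2, a helix-loop-helix factor of stellate cells and other mesenchyme, had 2.09 and 2.02 RPKM after GW4064, against 2.86 and 2.86 RPKM after DMSO, on chr8:57320983-57324517. It fell by 0.46 on the log2 scale (SE 0.05, adjusted p = 0.038 in limma). In both genes the replicates agreed closely and the groups were well apart. Limma-voom called 2 of the 23 as higher, Lhx2 and Pth1r (a parathyroid hormone receptor named after its values were seen) and 0 as lower, beside 9.09% of all genes in either direction. When each of the 4 libraries was left out in turn, which leaves an arm with 1 library, the log2 change ran from 0.88 to 0.95 for Lhx2 and from -0.48 to -0.43 for Hand2. The adjusted p was then between 0.15 and 0.23 in limma, in fits that called 0 genes in 3 cases and 43 genes in the other, and Hand2 missed the threshold in limma-voom (adjusted p = 0.063 in the fit of all 4 libraries). The most abundant genes of that list, the chemokine gene Cxcl12 (14.8 and 16.5 RPKM, against 14.3 and 13.8 RPKM in DMSO livers) and Angptl6 (3.65 and 3.28 RPKM, against 3.39 and 3.55 RPKM), did not pass.

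**Figure D4:**
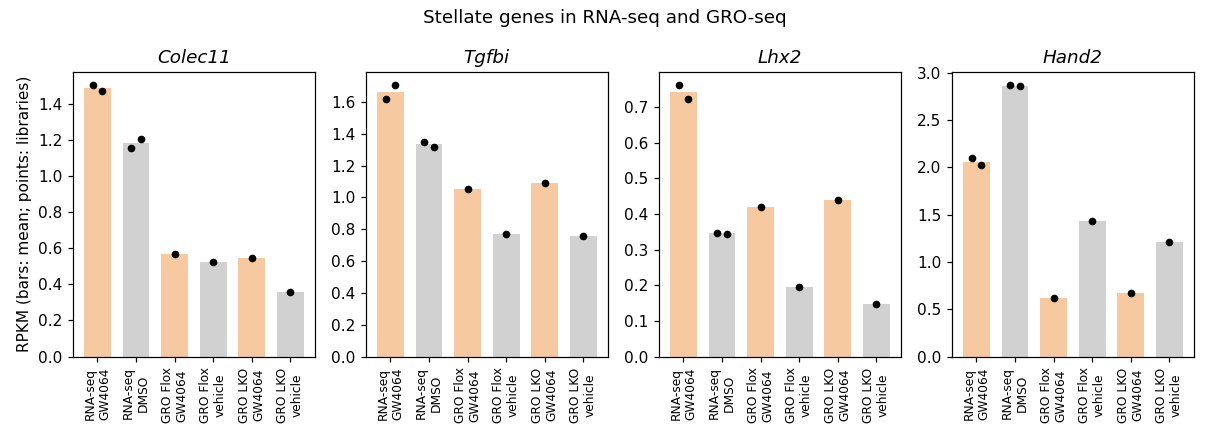
RPKM of Colec11, Tgfbi, Lhx2 and Hand2 in RNA-seq (GW4064, DMSO) and in GRO-seq of Fxr-Flox (WT label) and Fxr-LKO (KO label) livers with GW4064 or vehicle; bars are means and points are libraries. Lhx2 is higher and Hand2 lower with GW4064 in RNA-seq and in the single GRO-seq library of both genotypes, where the counting interval of Hand2 with the KO label spans equal levels.

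In GRO-seq, nascent Lhx2 was 0.439 RPKM with GW4064 and 0.148 RPKM with vehicle under the KO label (41 and 14 reads), against 0.420 and 0.195 RPKM under the WT label (82 and 51 reads). Nascent Hand2 was 0.670 RPKM with GW4064 and 1.21 RPKM with vehicle under the KO label (12 and 22 reads), against 0.614 and 1.44 RPKM under the WT label (23 and 72 reads). For both genes the GW4064 value stood on the same side of the vehicle value in either genotype, and Lhx2 lies below the mean of 0.5 RPKM used for the GRO-seq medians. Colec11 had 0.548 RPKM with GW4064 and 0.360 RPKM with vehicle under the KO label, against 0.570 and 0.523 RPKM under the WT label. Tgfbi had 1.09 and 0.758 RPKM under the KO label, against 1.05 and 0.768 RPKM under the WT label. Its log2 ratio of GW4064 over vehicle was 0.53 under the KO label (95% counting interval 0.18 to 0.88) and 0.46 under the WT label (0.23 to 0.68). Each GRO-seq group is 1 library, so no test was run, and counting intervals cover counting error only and leave out differences between mice.

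Among the markers, 23 reached a mean of 0.5 RPKM in GRO-seq, namely 6 Kupffer, 10 endothelial, 5 stellate and 2 bile duct genes. Under the KO label their median log2 ratio of GW4064 over vehicle was -0.07, beside -0.02 over 10169 genes. Under the WT label it was 0.21, beside -0.09 over the same genes. None of the 23 passed 2-fold in either genotype, where 0.688% of all genes passed upward and 0.482% downward under the KO label, and 2.56% upward and 1.61% downward under the WT label.

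Under the WT label all 6 Kupffer and all 10 endothelial genes had a ratio above 1 (38.0% of all genes). Counting intervals lay above equal levels for 12 of the 23 markers (17.9% of all genes) and below for 2, Dcn and Hgf (32.8% of all genes). The class medians on the log2 scale were 0.21 for Kupffer, 0.22 for endothelial, 0.11 for stellate and 0.11 for bile duct genes. Clec4g had 7.05 RPKM with GW4064 and 5.07 RPKM with vehicle, Ptprb 3.15 and 2.67 RPKM, and Clec4f 3.10 and 2.60 RPKM. Sox9 had 1.69 and 1.11 RPKM, and Dcn, in the other direction, 1.43 and 1.91 RPKM. These sinusoidal markers thus stood slightly higher and the matrix gene Dcn lower in the GW4064 library. Over 17 further Kupffer and 17 further endothelial genes kept, the medians were 0.19 and 0.16, with 13 and 14 ratios above 1. Single genes of these lists ran from -1.31 to 1.71 and from -1.07 to 0.57.

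Under the KO label the sinusoidal markers did not stand above vehicle as a group. The median was -0.38 over the 6 Kupffer genes and -0.07 over the 10 endothelial genes, 2 and 3 of which had a ratio above 1 (45.5% of all genes). Over the 17 further Kupffer and 17 further endothelial genes the medians were -0.021 and -0.015, with 8 ratios above 1 in each list. Counting intervals lay below equal levels for 8 of 23 markers (13.6% of all genes) and above for 2, Tgfbi and Colec11 (9.91% of all genes). Clec4f had 2.66 RPKM with GW4064 and 3.61 RPKM with vehicle, Csf1r 0.895 and 1.29 RPKM, and Clec4g 4.35 and 6.07 RPKM. The stellate median was 0.16 and the bile duct median 0.14. For 5 of the 23 markers, Clec4f, Cd5l, Csf1r, Stab2 and Clec4g, the intervals lay clear of equal levels on opposite sides in the 2 genotypes (7.22% of all genes). These libraries hold fewer reads than the WT-labelled ones, and Clec4g, for example, rests on 101 reads with GW4064 and 143 with vehicle.

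Single genes show how much the 4 GRO-seq libraries vary. Stab1 had 2.52 RPKM with GW4064 and 2.40 RPKM with vehicle under the KO label, against 3.13 and 2.53 RPKM under the WT label. Kdr had 0.791 and 1.11 RPKM under the KO label, against 1.03 and 0.932 RPKM under the WT label. Cd163 had 1.22 and 1.57 RPKM, against 1.35 and 1.18 RPKM. In Stab1 the WT-labelled GW4064 library stood above the other three, while in Kdr the KO-labelled GW4064 library was lowest, and in Cd163 the KO-labelled vehicle library was highest. Pecam1 had 0.808 and 0.854 RPKM with GW4064 and vehicle under the KO label, against 0.815 and 0.685 RPKM under the WT label. Fcgr2b had 1.78 and 1.88 RPKM, against 1.95 and 1.66 RPKM. Hgf had 1.84 and 2.56 RPKM, against 2.63 and 3.07 RPKM, with GW4064 under vehicle in both genotypes. Ecm1 had 5.17 and 4.63 RPKM under the KO label, against 5.62 and 4.84 RPKM under the WT label, with GW4064 above vehicle in both.

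**Figure D5:**
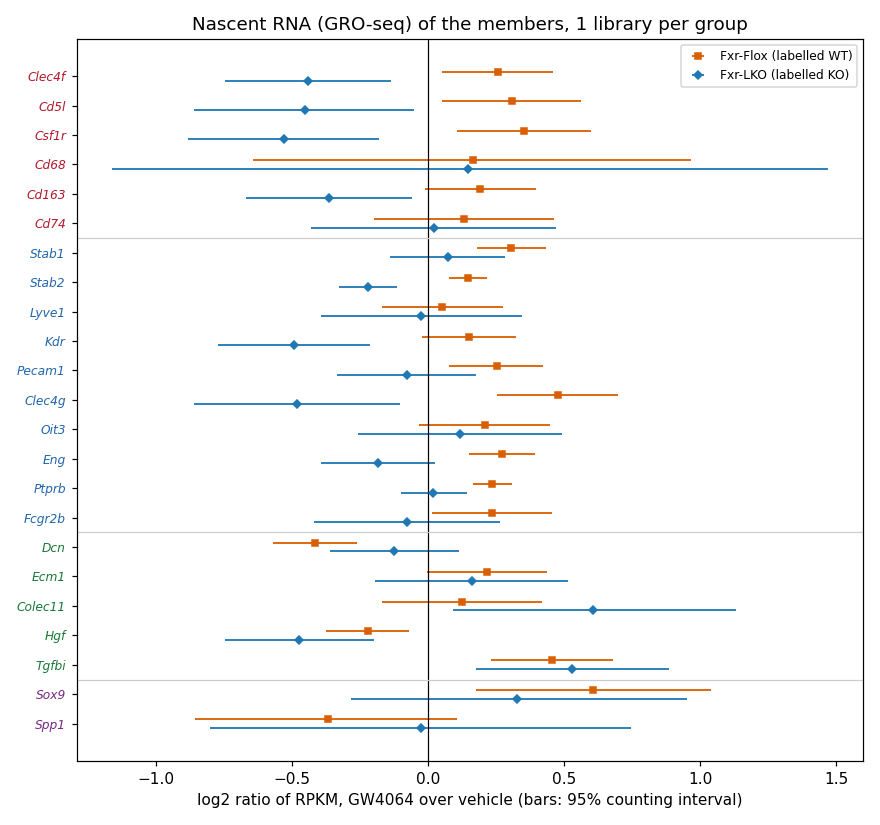
Log2 ratio of GRO-seq RPKM, GW4064 over vehicle, for the 23 markers with a mean of at least 0.5 RPKM, in Fxr-Flox (WT label, squares) and Fxr-LKO (KO label, diamonds) livers, with 95% counting intervals. Kupffer and endothelial genes lie above 0 with the WT label and mostly below with the KO label, and Tgfbi is above 0 in both.

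Between genotypes, the vehicle libraries gave a median log2 ratio of KO over WT label of 0.40 for Kupffer, 0.10 for endothelial, -0.17 for stellate and 0.07 for bile duct genes, beside -0.07 for all genes. With GW4064 these medians were -0.14, -0.25, -0.05 and 0.10, beside 0.00 for all genes. From the wider lists, 17 Kupffer, 17 endothelial, 14 stellate and 3 bile duct genes were kept. Their medians were 0.10, -0.285, -0.279 and 0.34 after vehicle, and -0.11, -0.45, 0.04 and -0.36 after GW4064. The endothelial median after vehicle thus had opposite signs in the markers and in the wider list. Csf1r had 1.29 RPKM with the KO label and 0.784 RPKM with the WT label after vehicle, and 0.895 and 1.00 RPKM after GW4064. Eng had 2.19 RPKM with the KO label and 2.24 RPKM with the WT label after vehicle, and 1.93 and 2.701 RPKM after GW4064. None of the 23 markers passed 2-fold in either comparison, where 1.59% of all genes passed upward and 1.29% downward after vehicle, and 2.00% upward and 3.43% downward after GW4064. Marco, under the level kept, had 0.319 RPKM with the KO label and 0.056 RPKM with the WT label after vehicle (50 and 24 reads). That log2 ratio was 2.51 (95% counting interval 1.79 to 3.29), and after GW4064 it was -0.18 (-1.04 to 0.62). The 4 GRO-seq comparisons share libraries, so a high or low value in one library moves a pair of them at once.

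Hepatocyte genes moved between these GRO-seq libraries too. Their summed level was 1313 RPKM with GW4064 and 1405 RPKM with vehicle under the KO label, against 1030 and 884.7 RPKM under the WT label. Summed Kupffer markers were 10.04 and 12.42 RPKM under the KO label, against 10.9 and 9.27 RPKM under the WT label. Summed endothelial markers were 19.5 and 21.9 RPKM, against 25.2 and 20.7 RPKM. Of the list of other blood cell genes, 8 rows were kept, 6 of them globin copies that share reads. Hba-a1 had a log2 ratio of GW4064 over vehicle of 0.29 under the KO label and 0.68 under the WT label, while S100a8 and S100a9, the kept genes that are not globins, had 0.36 and 0.58 under the KO label and -0.44 and -0.35 under the WT label. The yield of nuclei from each cell type was not tested.

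At the lowest levels GRO-seq gave few reads. Krt7 had 1 and 2 reads with GW4064 and vehicle under the KO label, against 1 and 7 reads under the WT label. Krt19 had 2 and 1 reads, against 2 and 6, and Epcam 6 and 4, against 5 and 6. Lum had 4 and 3 reads under the KO label, against 21 and 24 under the WT label, and Col1a1 5 and 3, against 12 and 33. Col3a1 had 22 and 14 reads, against 41 and 96. Col1a2 had 15 and 23 reads under the KO label, against 36 and 66 under the WT label, and Des 14 and 11, against 15 and 24. Marco, also below the level kept, had 19 and 50 reads, against 45 and 24, a log2 ratio of GW4064 over vehicle of -1.38 under the KO label (95% counting interval -2.22 to -0.59) and 1.31 under the WT label (0.58 to 2.11). For Krt7, Krt19, Epcam and Col1a2 no difference was detectable at these depths in any of the 4 GRO-seq comparisons. The counting intervals of Col1a1 and Col3a1 lay below equal levels for GW4064 over vehicle under the WT label (log2 -2.13 to -0.05 and -1.37 to -0.27) and for the KO over the WT label after vehicle (-4.35 to -0.32 and -2.24 to -0.50). Vsig4, Timd4, Pdgfra, Pdgfrb and Reln also missed the level kept, with 0.303 to 0.446, 0.365 to 0.434, 0.307 to 0.426, 0.235 to 0.317 and 0.314 to 0.409 RPKM over the 4 libraries. By reads Reln was not low, at 743 to 2668 per library. Its log2 counting interval was 0.09 to 0.38 for GW4064 over vehicle under the KO label and -0.11 to 0.06 under the WT label. For the KO over the WT label it was -0.50 to -0.26 after vehicle and -0.241 to -0.007 after GW4064. Vsig4, Pdgfra and Pdgfrb had intervals clear of equal levels in some comparisons, and Timd4 in none. Of the kept genes, Cd68, Cd74, Lyve1, Oit3, Ecm1 and Spp1 had counting intervals that spanned equal levels for GW4064 over vehicle in both genotypes.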

How the data were processed

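The deposited RPKM values of 8 mouse liver libraries were used, 4 of RNA-seq and 4 of GRO-seq. The authors aligned reads to mm10 with STAR, for which the submitters' processing notes give version 2.7.3a, and computed RPKM per gene with HOMER. Row length is end minus start in 24932 of 25124 rows, which means that introns are counted. RPKM times row length and a fitted total came out within 0.2 of a whole read in 100.0% of testable values. These totals lie below the numbers of uniquely mapped reads that the study lists, and the step between them is not given in the sources used here. The labels name a stranded TruSeq kit and the paper a Kapa HyperPrep kit.

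RNA-seq was tested with limma 3.58.1 in R 4.3.3 on log2(RPKM + 0.1), where the mean over the 4 libraries reached 0.5 RPKM (eBayes with trend=TRUE), with Benjamini-Hochberg adjustment over 11408 genes and a threshold of 0.05. These fold changes understate those of low genes. Limma-voom on the rebuilt reads, with library sizes scaled by a trimmed mean of log ratios, was an alternative, and its form with no filter was added after seeing the data. It called 8 of 25124 genes. GRO-seq, with 1 library per group, gave log2 ratios without a test, with the same minimum. Ratios and medians over lists have 0.1 RPKM added, and single ratios printed with a 95% exact binomial counting interval have none. A 2-fold call needed 20 reads in a library of the pair. Nothing in the labels says which replicates share a preparation day. Scripts were tested on simulated data. Python 3.11.15 with pandas 2.3.3, scipy 1.17.1 and matplotlib 3.10.9 was used.

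Members, lists and tests were chosen with earlier results of these data known. All 37 members are named, and from the wider lists of other markers, hepatocyte and blood genes those past the threshold and the 2 with the highest mean RPKM. Nr1h4 and Nr0b2 check the labels. A limma-voom result of the wider bile duct list is not reported here. The wider stellate list holds Plvap, an endothelial gene. Other alternatives were added values of 0.01 and 1 RPKM, filters at 0.1 and 1 RPKM or none, quantile normalization, median centring, trend=FALSE, robust=TRUE, a replicate block, each library left out, and rows that overlap another row left out.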

Additional observations from a re-analysis of the deposited data

Results flagged for a closer look

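In 5 of the 23 markers kept in GRO-seq, the nascent RNA ratio of GW4064 over vehicle lay on opposite sides of 1 in the 2 genotypes, with both counting intervals clear of equal levels. This was so for 7.22% of all genes kept. Clec4f had a log2 ratio of -0.44 with the KO label and 0.26 with the WT label, a difference of 0.70 (WT label minus KO label). For Cd5l the values were -0.45 and 0.31, a difference of 0.76. Csf1r showed -0.53 and 0.35, a difference of 0.88. Stab2 had -0.22 and 0.15, a difference of 0.37 that rests on 1284 to 3746 reads per library. Clec4g had -0.48 and 0.48, a difference of 0.96. Each value is 1 library over 1 library, and the difference between genotypes was not tested. All 5 are genes of Kupffer or sinusoidal endothelial cells, as are 16 of the 23 kept markers. In RNA-seq of wild-type livers none of the 5 differed between GW4064 and DMSO in limma (adjusted p between 0.66 and 0.95).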

How the results depend on the processing

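Over all settings listed under the processing other than limma-voom, 0 of the tested markers passed. Limma-voom on rebuilt reads called 559 genes as higher and 478 as lower, against 243 and 131 in the fit reported, and 2 markers as higher. With no filter, an alternative added after seeing the data, it called 8 as higher and 0 as lower, and 0 markers. Leaving out each library in turn gave 0 to 32 genes as higher and 0 to 11 as lower, with 43 genes in all without DMSO replicate 1 and 0 without any of the others, and each of these fits has 1 library in an arm. Over these fits the median stellate change ran from 0.029 to 0.296, the Kupffer median from -0.027 to 0.093, the endothelial median from -0.04 to 0.01 and the bile duct median, of 2 genes, from -0.30 to 0.31. The replicate block called 0 genes as higher and 0 as lower, 0 markers among them, with 2327 genes at an unadjusted p under 0.05. Replicate numbers only name libraries, and same-numbered libraries did not deviate together (r = -0.02 across 11408 genes, which are not independent replicates). Lhx2 kept its direction and lost its call with no filter (adjusted p = 0.10), quantile normalization (0.072), median centring (0.050) and the replicate block (0.12), and Hand2 with a filter at 0.1 RPKM (0.052), trend=FALSE (0.054) and the replicate block (0.10), all in limma. The other settings moved no class median by more than the replicate spread. Leaving out rows that overlap another row put the median level at 2.15 RPKM for Kupffer and 2.38 RPKM for endothelial genes. Of the 33 tested markers, between 4 and 9 changed the sign of an uncalled difference when a library was left out. Depth limits duct markers and collagens most, at 10 to 36 RNA-seq reads for Krt19.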
